A study of Mus musculus with 3 samples.

Results

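The 47 genes described here are the Wnt ligands, their frizzled and LRP receptors, the LGR receptors and ubiquitin ligases that set receptor levels, β-catenin with its TCF/LEF partners, and the feedback and secreted inhibitors of the pathway. They were chosen by symbol from the 46095 gene symbols of the count table: every Wnt and Fzd gene, and 18 named pathway genes. RNA-seq was done on prostate tumor tissue of male TRAMP mice at 37 weeks. In this model, on a C57BL/6 background, an SV40 viral oncoprotein made in the epithelium of the prostate drives cancer, and all 3 libraries carry that transgene. The TRAMP library came from mice labeled PHF8 wild-type, and the libraries Phf8-KO1 and Phf8-KO2 came from mice labeled PHF8 knockout, Phf8 being the X-linked gene of a histone demethylase. Each library held RNA pooled from 3 mice. Which mice and which lesions went into each pool, and whether the Phf8-KO pools came from different animals, is not given in the sources used here. A p-value therefore speaks only to the spread between Phf8-KO1 and Phf8-KO2, which may be technical and which TRAMP is assumed to share. Phf8 itself was at 19.4 CPM (reads relative to the TMM-scaled library size) in TRAMP against 15.0 in Phf8-KO1 and 15.9 in Phf8-KO2, a whole-gene count that cannot check a partial deletion.

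Wnt proteins are lipid-modified secreted ligands that bind a frizzled receptor together with LRP5 or LRP6. In the canonical branch this binding stops the breakdown of β-catenin, which then enters the nucleus and turns on targets together with TCF/LEF factors, while other ligands act without β-catenin on cell polarity and movement. Several targets, such as Axin2, Notum, Lgr5, Rnf43 and Znrf3, act back on the pathway, and secreted SFRP and DKK proteins hold it in check. In the prostate, Wnt signals pass between stroma and epithelium and guide bud growth and luminal differentiation.

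The libraries held 29954020 counts (TRAMP), 26747443 counts (Phf8-KO1) and 31876182 counts (Phf8-KO2), so that 3 counts, taken as the floor of detection, were worth between 0.0905 and 0.113 CPM. All 5 luminal epithelial markers had counts in the table, and their summed level was 4057 CPM in TRAMP against 4931 in Phf8-KO1 and 4646 in Phf8-KO2. The pools also differed in markers of other cells. The summed level of 6 smooth muscle markers was 674 CPM in TRAMP against 4997 in Phf8-KO1 and 363 in Phf8-KO2, and the pools were far apart in each of the 6. Of 6 fibroblast markers, Col1a1 (8.20, 163 and 97.1 CPM), Col1a2 (41.8, 314 and 181 CPM) and Col3a1 (96.7, 468 and 121 CPM) were higher in both Phf8-KO pools, while Dcn, at 1474, 640 and 215 CPM, was lower in both and made up most of their summed level of 1725, 1689 and 703 CPM. The neuroendocrine markers Chga (17.0, 4.88 and 3.92 CPM), Syp (6.30, 2.44 and 1.96 CPM) and Scg2 (13.0, 0.300 and 0.0604 CPM) were lower in both Phf8-KO pools, as were all 5 macrophage markers (288, 159 and 68.4 CPM) and 6 of 7 T cell markers (38.6, 14.9 and 8.06 CPM; Trac had no count). Adipocyte and skeletal muscle markers were also highest in TRAMP (630 against 18.8 and 30.7 CPM, and 1086 against 72.1 and 10.1 CPM), and all 4 seminal vesicle markers were lowest there (110 against 1362 and 1947 CPM). Of 5 goblet-like markers, 3 were higher in both Phf8-KO pools (Tff3 at 5.09, 320 and 2204 CPM, for example), while Agr2, at 786, 270 and 457 CPM, was lower in both and carried the TRAMP sum (792, 612 and 2753 CPM). Of 4 basal markers, Krt15 was lower in both (148, 16.2 and 47.1 CPM) and Krt14 higher in both (2.77, 11.8 and 8.90 CPM), with sums of 177, 41.3 and 103 CPM. Of 4 endothelial markers, 1 was lower and 2 were higher in both, with sums of 52.7, 41.5 and 83.1 CPM. The part of these differences in the levels below was not tested, and in tumor tissue fewer cells of a type and less RNA per cell cannot be told apart.

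The sequences shown here are the 250 bases before the RefSeq start site of 3 members that lay higher in both Phf8-KO pools (Wnt4, Fzd1 and Fzd4) and of 3 textbook β-catenin target genes (Axin2 and Lef1, and Sp5, which is not a member). They are from GRCm38.p6, written 5′ to 3′ along the gene, with TCF/LEF letters (CTTTGAA or CTTTGAT, searched on both strands) in capitals.
Wnt4 (chr4:137277385-137277634, + strand): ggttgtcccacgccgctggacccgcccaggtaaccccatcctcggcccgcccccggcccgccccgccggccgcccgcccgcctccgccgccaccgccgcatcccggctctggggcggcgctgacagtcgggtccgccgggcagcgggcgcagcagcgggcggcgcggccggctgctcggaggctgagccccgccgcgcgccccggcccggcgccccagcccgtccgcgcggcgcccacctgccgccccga
Fzd1 (chr5:4758217-4758466, - strand): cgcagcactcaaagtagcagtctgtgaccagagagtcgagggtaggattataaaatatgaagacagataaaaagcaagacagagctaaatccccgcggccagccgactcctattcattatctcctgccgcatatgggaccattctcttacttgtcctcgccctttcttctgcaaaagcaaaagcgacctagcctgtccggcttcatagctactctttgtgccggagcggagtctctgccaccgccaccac
Fzd4 (chr7:89404116-89404365, + strand): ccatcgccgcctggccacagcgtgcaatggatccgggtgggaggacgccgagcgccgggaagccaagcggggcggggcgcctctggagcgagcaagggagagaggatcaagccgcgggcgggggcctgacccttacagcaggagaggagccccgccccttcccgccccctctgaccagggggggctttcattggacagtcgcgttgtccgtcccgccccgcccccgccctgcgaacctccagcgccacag
Axin2 (chr11:108920099-108920348, + strand): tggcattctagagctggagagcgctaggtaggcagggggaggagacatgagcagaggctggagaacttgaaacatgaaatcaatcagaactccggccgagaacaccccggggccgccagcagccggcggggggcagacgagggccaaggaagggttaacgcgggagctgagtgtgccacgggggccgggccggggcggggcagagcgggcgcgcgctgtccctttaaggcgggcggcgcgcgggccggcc
Lef1 (chr3:131110047-131110296, + strand): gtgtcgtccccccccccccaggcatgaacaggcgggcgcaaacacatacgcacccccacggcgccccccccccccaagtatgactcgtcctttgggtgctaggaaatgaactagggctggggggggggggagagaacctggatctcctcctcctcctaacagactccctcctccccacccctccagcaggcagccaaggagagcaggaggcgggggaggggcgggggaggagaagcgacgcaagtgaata
Sp5 (chr2:70474673-70474922, + strand): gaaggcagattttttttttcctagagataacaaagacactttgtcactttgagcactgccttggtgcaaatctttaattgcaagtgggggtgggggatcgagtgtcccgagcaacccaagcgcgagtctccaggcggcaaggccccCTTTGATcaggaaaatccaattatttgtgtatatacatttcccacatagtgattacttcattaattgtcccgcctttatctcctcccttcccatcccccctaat
Of these 6 windows, Sp5 alone held the letters, at position -104 from the start. RefSeq promoter windows of 300 bases (250 before the start to 50 after it) were matched for 32 of the 47 members and came to 42 windows. The letters were in 3 of them (7.14%), in Dkk1 at -117, Wnt11 at -51 on the other strand and Wnt5b at -71, against 8.651% of all 32851 windows. A match of 7 letters is a description of the window and not a binding site. The member windows were rich in CpG, with a median of 25 per window against 7 over all windows, and 36 of the 42 lay above that overall median. The printed stretches ranged from 44 CpG and 85.2% G and C in Wnt4 to 6 CpG and 46.0% in Sp5. Wnt7b, Lrp5, Lgr5, Notum and Sfrp1 are among the members with no window in the table.

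Of the 47 members, 45 had a count in some library and 37 passed the filter on low counts. The 10 that did not pass were 8 ligands, Fzd9 and Dkk1. Wnt1 and Wnt8a had no count in any library, Wnt3, Wnt3a, Wnt8b, Wnt9b and Dkk1 had 1 count in all, Wnt16 had 4 counts in Phf8-KO2 alone, and Wnt10a and Fzd9 had between 2 and 5 counts in each library. No member was called by edgeR's quasi-likelihood test (adjusted p under 0.05 after Benjamini-Hochberg adjustment, with a fold change over 2), where the background over all 18216 genes tested was 0.0384% lower and 0.0% higher. The smallest adjusted p among the members was 0.101. At an unadjusted p under 0.05, 1 member was lower (Lgr5; background 12.2%) and 9 were higher (Wnt4, Wnt7b, Fzd1, Fzd4, Fzd7, Lrp5, Lef1, Notum and Sfrp2; background 14.9%). DESeq2 called 1 member lower (Lgr5; background 4.59%) and 6 higher (Wnt4, Wnt7b, Fzd1, Fzd4, Lrp5 and Sfrp2; background 9.42%), and gave no adjusted p for 5 of the 37. The likelihood ratio test of edgeR called 1 lower and 6 higher, for which the share of all genes is not given here.

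Set directly against TRAMP, 10 of the 37 members (27.0%) lay more than 2-fold higher in both Phf8-KO pools, against 11.7% of all genes tested. They were Wnt4, Wnt6, Wnt7a, Wnt7b, Fzd1, Fzd4, Lrp5, Lef1, Notum and Sfrp2. Wnt7a had 0 counts in TRAMP, so any count in both Phf8-KO pools placed it in this group. Wnt6 and Notum had 2 and 4 counts in TRAMP. Wnt7a, Wnt6 and Notum passed the filter on low counts only through the Phf8-KO pools. A higher level there was thus partly built into their selection. Lgr5, Wnt2b and Wnt11 lay more than 2-fold lower in both pools, 3 of 37 against 12.4% of all genes. Wnt2b and Wnt11 passed the filter on low counts only through the TRAMP pool. For them, a lower level in the Phf8-KO pools was likewise partly built into their selection. Without regard to size, 22 members were higher in both pools and 6 lower in both, against 40.8% and 42.8% of all genes. The median log2 fold change of the tested members was 0.81, and that of all genes was 0.0099. With only 1 TRAMP pool, the comparison has no measure of how TRAMP pools vary among themselves.

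**Figure D1:**
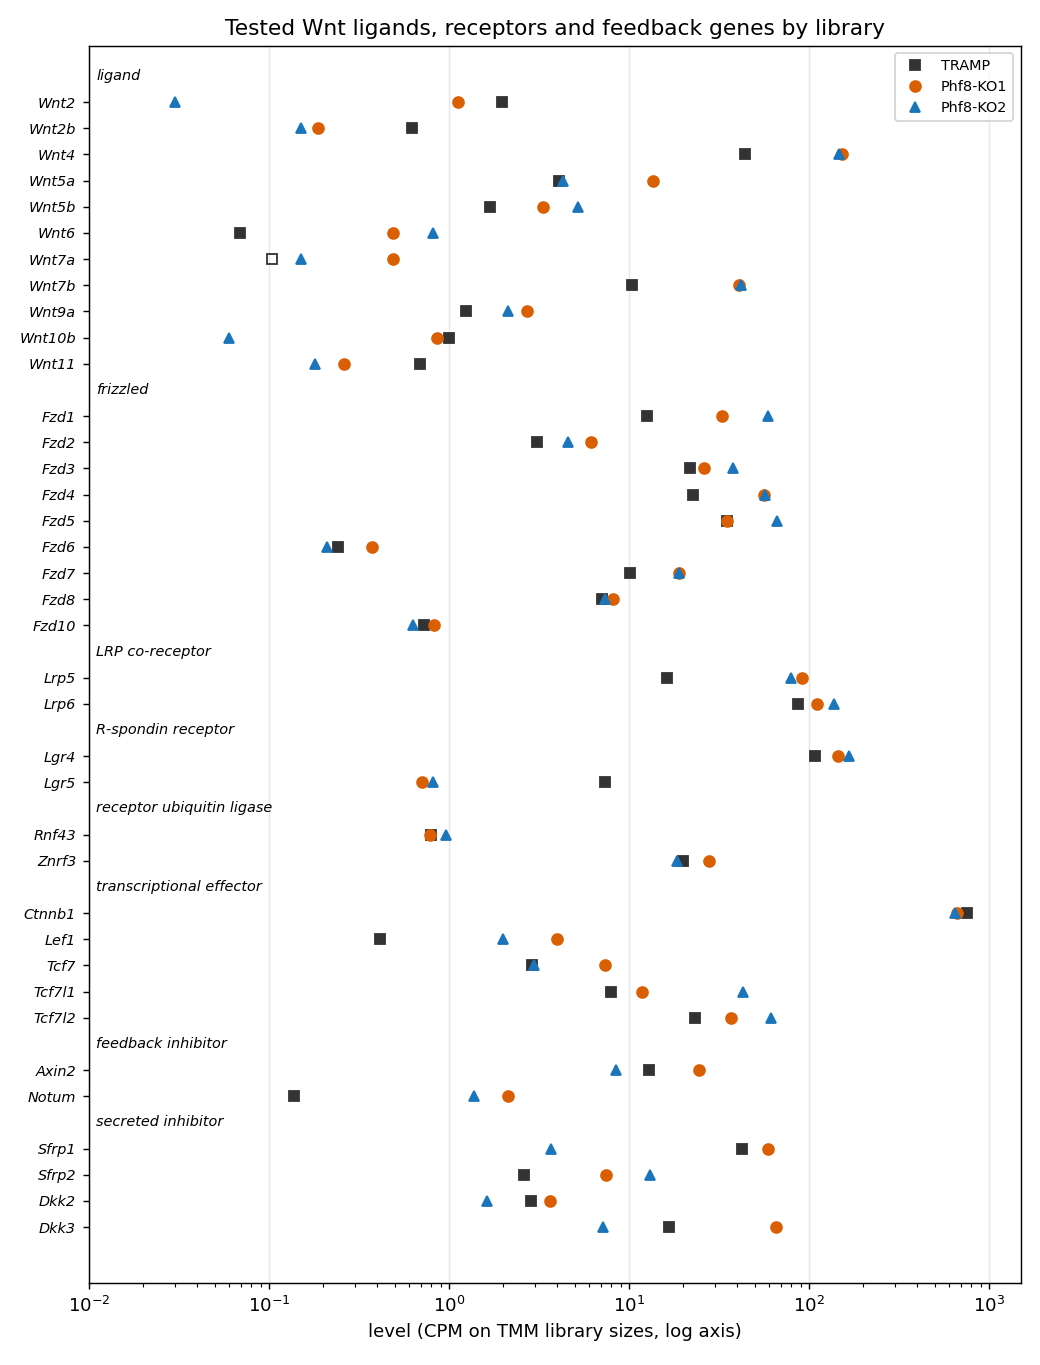
Level of each of the 37 tested members (CPM on TMM library sizes, log axis) in TRAMP (squares), Phf8-KO1 (circles) and Phf8-KO2 (triangles), grouped by role; the open square of Wnt7a is the floor of 3 counts, as TRAMP had none. Wnt4, Wnt7b, Fzd4 and Lrp5 show both Phf8-KO marks close together and to the right of TRAMP, Lgr5 shows them together on the left, and Sfrp1, Dkk3 and Wnt2 show them far apart.

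Among the ligands, Wnt4 and Wnt7b were the most abundant per length of transcript in every library and lay higher in both Phf8-KO pools. Wnt4, a ligand of kidney and reproductive tract development, lies on chromosome 4 from 137277635 to 137299501 (RefSeq coordinates of GRCm38.p6, as for all genes here). It was at 44.2 CPM in TRAMP against 152 in Phf8-KO1 and 147 in Phf8-KO2. Its Phf8-KO pools thus differed by 1.04-fold from each other and by 3.38-fold on average from TRAMP (log2 fold change 1.76, SE 0.20, adjusted p = 0.101 in edgeR's quasi-likelihood test and 4.65e-08 in DESeq2). Wnt7b, a ligand of epithelia that signals to the tissue beneath, lies on chromosome 15 from 85535437 to 85581821. It was at 10.3 CPM in TRAMP against 40.8 in Phf8-KO1 and 41.8 in Phf8-KO2 (log2 fold change 2.00, SE 0.21, adjusted p = 0.101, in DESeq2 1.40e-06; 1.05 relative to genes of like G and C content). Exons of Wnt7b overlap AU022754 on the opposite strand, which itself had 1043, 1196 and 1997 counts, and without a stated strand setting the reads of both cannot be told apart.

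Summed over all 19 ligands, the level per kilobase of exon was 15.7 CPM per kb in TRAMP, 49.8 in Phf8-KO1 and 47.3 in Phf8-KO2. Wnt4 made up 67.0% of that sum in TRAMP, 72.9% in Phf8-KO1 and 74.0% in Phf8-KO2, and Wnt7b made up 13.4%, 16.7% and 18.1%. The summed ligand level was thus mostly that of these 2 genes in every library.

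The weaker ligands went in several directions. Wnt6 had 2 counts in TRAMP, 13 in Phf8-KO1 and 27 in Phf8-KO2, a pooled ratio of 9.67 (95% counting interval 2.51 to 82.6). Wnt7a, the close relative of Wnt7b, had 0, 13 and 5 counts. The pooled Phf8-KO level was 2.90-fold that of TRAMP when TRAMP is set to the floor of 3 counts. With the 0 counts kept, the lower end of the 95% counting interval of the pooled ratio was 2.13. Both ligands thus stood near the limit of detection in TRAMP. Wnt5b was at 1.70 CPM in TRAMP against 3.34 in Phf8-KO1 and 5.19 in Phf8-KO2, and Wnt9a at 1.25, 2.70 and 2.14 CPM, each above 2-fold in 1 pool only.

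Wnt2b and Wnt11 were lower in both pools, on few reads, and passed the filter on low counts only through TRAMP. Wnt2b had 18, 5 and 5 counts (TRAMP to Phf8-KO ratio 3.72, counting interval 1.63 to 9.03). Wnt11 had 20, 7 and 6 counts (ratio 3.18, interval 1.51 to 6.96). Wnt5a, the best known ligand of the branch without β-catenin, was at 4.12 CPM in TRAMP against 13.7 in Phf8-KO1 and 4.32 in Phf8-KO2. Only Phf8-KO1 stood apart for Wnt5a, while Phf8-KO2 lay beside TRAMP. Wnt2 and Wnt10b were below TRAMP in both pools but more than 2-fold so in Phf8-KO2 alone, with 57, 30 and 1 counts for Wnt2 and 29, 23 and 2 counts for Wnt10b.

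**Figure D2:**
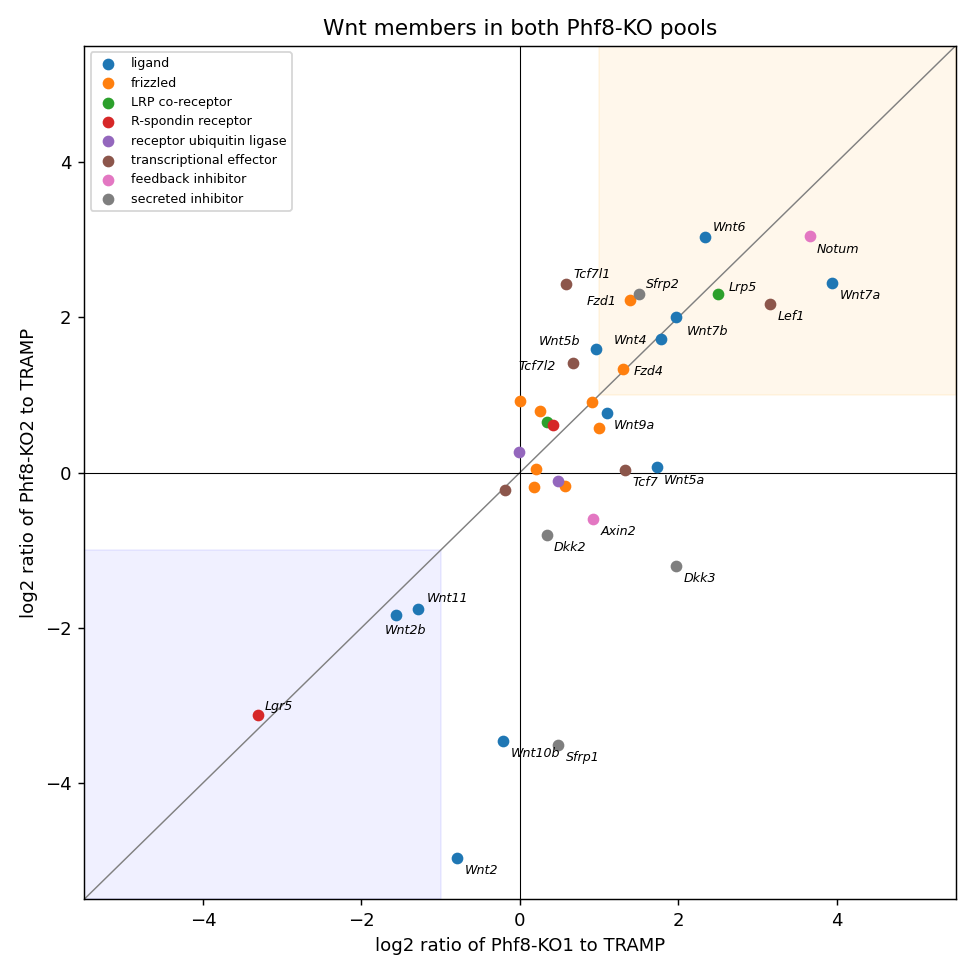
Log2 ratio to TRAMP in Phf8-KO1 (x axis) and Phf8-KO2 (y axis) of the 37 tested members, colored by role, computed with a prior count of 1; the line marks equal ratios and the shaded corners mark more than 2-fold in both pools. The upper corner holds 10 members and the lower corner 3, while Sfrp1, Wnt2, Wnt10b and Dkk3 lie far below the line.

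Of the 9 tested frizzled receptors, 6 were higher in both Phf8-KO pools, 3 had unadjusted p under 0.05 (14.9% of all genes did on the higher side), and none was lower in both (the small margin of Fzd8 turned under upper quartile scaling). Fzd4, which also binds the non-Wnt ligand Norrin in blood vessels, lies on chromosome 7 from 89404366 to 89410110 and was at 22.7 CPM in TRAMP against 56.1 in Phf8-KO1 and 57.1 in Phf8-KO2 (log2 fold change 1.32, SE 0.19, adjusted p = 0.101, in DESeq2 0.000945). The Phf8-KO pools were within 1.02-fold of each other for this receptor. Fzd1, a receptor of the β-catenin branch, lies on chromosome 5 from 4753839 to 4758216 and was at 12.6, 33.0 and 59.2 CPM (log2 fold change 1.87, SE 0.46, adjusted p = 0.125, in DESeq2 0.00222; 1.33 relative to genes of like G and C content). Phf8-KO2 was 1.80-fold above Phf8-KO1, both above TRAMP. Fzd7, linked to stem cells in several epithelia, was at 10.1, 19.0 and 19.0 CPM (log2 fold change 0.91, SE 0.26, adjusted p = 0.148), with its pools also nearly equal.

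The other frizzled genes lay closer to TRAMP. Fzd5 was at 35.0 CPM in TRAMP against 35.0 in Phf8-KO1 and 66.7 in Phf8-KO2, so that 1 pool matched TRAMP and the pools were 1.91-fold apart. Fzd3, known for axon guidance, was at 21.8, 26.0 and 37.8 CPM. Fzd2 was at 3.08, 6.19 and 4.59 CPM, and Fzd8 at 7.10, 8.18 and 7.33 CPM, while Fzd6 and Fzd10 stayed below 1 CPM in every library. Per kilobase of exon, the frizzled sum was 17.7 CPM per kb in TRAMP, 30.9 in Phf8-KO1 and 42.1 in Phf8-KO2. The leading receptor was a different one in each library: Fzd5 with 28.6% of the sum in TRAMP, Fzd4 with 27.0% in Phf8-KO1 and Fzd1 with 33.5% in Phf8-KO2.

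Lrp5, one of the paired co-receptors that frizzled needs for the β-catenin branch, had the smallest p of all members. It lies on chromosome 19 from 3584825 to 3686585 and was at 16.2 CPM in TRAMP against 91.8 in Phf8-KO1 and 80.0 in Phf8-KO2, a 5.29-fold difference (log2 fold change 2.40, SE 0.22, unadjusted p = 0.000532, adjusted p = 0.101, in DESeq2 9.78e-12). Both Phf8-KO pools lay within 1.15-fold of each other. Lrp6, its paralog with the same role, was at 87.6, 111 and 138 CPM (log2 fold change 0.51, SE 0.23, adjusted p = 0.253). The paralogs therefore differed in the size of the gap to TRAMP, a difference that was not itself tested.

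The LGR receptors bind R-spondins, which protect frizzled from removal. Lgr5, a stem cell marker of several epithelia and itself a β-catenin target, lies on chromosome 10 from 115450314 to 115587780. It was at 7.37 CPM in TRAMP against 0.713 in Phf8-KO1 and 0.815 in Phf8-KO2, from 213, 19 and 27 counts. It was the only member with an unadjusted p under 0.05 in the lower direction, with a log2 fold change of -3.26 (SE 0.52, adjusted p = 0.101 in edgeR's quasi-likelihood test and 0.00235 in DESeq2). TRAMP exceeded the Phf8-KO pools 9.58-fold in pooled counts (counting interval 6.94 to 13.5). The neuroendocrine markers Chga, Syp and Scg2 were likewise highest in the TRAMP pool. So were the summed adipocyte, skeletal muscle, macrophage and T cell markers and the basal marker Krt15. The part of any of these cells in the Lgr5 level was not tested. Lgr4, the widely expressed relative, was at 109, 146 and 166 CPM (log2 fold change 0.52, SE 0.20, adjusted p = 0.213).

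The ligases that LGR and R-spondin hold back showed no such gap. Rnf43, which marks frizzled for degradation, was at 0.796 CPM in TRAMP against 0.788 in Phf8-KO1 and 0.966 in Phf8-KO2. Znrf3, its relative, was at 19.9, 27.8 and 18.5 CPM, with the Phf8-KO pools on either side of TRAMP. These values are too few to show that the groups are alike.

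Ctnnb1, which encodes β-catenin, was the most abundant member in CPM, at 761 CPM in TRAMP against 668 in Phf8-KO1 and 652 in Phf8-KO2 (log2 fold change -0.20, SE 0.27, adjusted p = 0.645). Lef1, a TCF/LEF factor that is also a target of the pathway, was nearly silent in TRAMP, with 12 counts against 106 in Phf8-KO1 and 66 in Phf8-KO2. Its levels were 0.415, 3.98 and 1.99 CPM (log2 fold change 2.83, SE 0.86, adjusted p = 0.155, in DESeq2 0.0589). Both Phf8-KO pools lay above TRAMP, although they were 2.00-fold apart. Tcf7l2, the most widely expressed TCF factor, was at 23.2, 37.0 and 61.7 CPM (adjusted p = 0.188), and Tcf7l1, mainly a repressor, at 7.93, 11.9 and 43.0 CPM (adjusted p = 0.290). For both, Phf8-KO2 was the highest library and Phf8-KO1 lay less than 2-fold above TRAMP. Tcf7 was at 2.91, 7.36 and 2.99 CPM, where only Phf8-KO1 stood out.

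The feedback targets did not move as a block. Notum, a secreted enzyme that strips the lipid from Wnt proteins, lies on chromosome 11 from 120653788 to 120661193 and had 4 counts in TRAMP, 57 in Phf8-KO1 and 46 in Phf8-KO2. The pooled ratio was 12.4 (counting interval 4.72 to 46.5; log2 fold change 3.63, SE 0.95, adjusted p = 0.133). Axin2, a scaffold of the β-catenin destruction complex and the most used reporter of canonical signaling, was at 12.9 CPM in TRAMP against 24.5 in Phf8-KO1 and 8.48 in Phf8-KO2. Axin2 was thus above TRAMP in 1 pool and below it in the other, 2.89-fold apart (counting interval 2.50 to 3.33). Sp5, another textbook target, had the same order with 10.9, 25.6 and 6.19 CPM, and Nkd1 was at 3.57, 8.56 and 4.56 CPM while Nkd2 was at 2.28, 5.70 and 4.59 CPM, more than 2-fold higher in both pools (these 3 genes were picked after their values were seen). Notum, Lef1, Axin2 and Lgr5, all known β-catenin targets, therefore gave 3 different patterns over the same libraries.

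The secreted inhibitors set the Phf8-KO pools apart. Sfrp1, which binds Wnt proteins and frizzled, lies on chromosome 8 from 23411383 to 23449632 and was at 42.4 CPM in TRAMP against 59.3 in Phf8-KO1 and 3.68 in Phf8-KO2, a 16.1-fold gap between the Phf8-KO pools (counting interval 13.4 to 19.5). Dkk3, a divergent DKK member, was at 16.7, 65.5 and 7.21 CPM, 9.08-fold apart (7.93 to 10.4). Only Phf8-KO2 was low for Sfrp1, whereas for Dkk3 the pools lay on opposite sides of TRAMP. Sfrp2 alone was higher in both, at 2.63 CPM in TRAMP against 7.51 in Phf8-KO1 and 13.1 in Phf8-KO2 (log2 fold change 1.97, SE 0.57, adjusted p = 0.147, in DESeq2 0.0245). Dkk2, which blocks LRP5 and LRP6, was at 2.87, 3.64 and 1.63 CPM.

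The Phf8-KO pools were more than 2-fold apart for 10 of the 37 members, against 19.8% of all genes tested, and more than 4-fold apart for Wnt2, Wnt10b, Sfrp1 and Dkk3, 4 of 37 against 8.71%. For these 4, Phf8-KO1 was the higher pool. The muscle and fibroblast genes were ordered the same way between the pools: Myh11 was at 126 CPM in TRAMP against 1416 in Phf8-KO1 and 72.3 in Phf8-KO2, and Lum at 60.9, 75.3 and 2.54 CPM. All 6 smooth muscle markers and 5 of the 6 fibroblast markers were higher in Phf8-KO1 than in Phf8-KO2, Pdgfra being the exception. The part of smooth muscle and fibroblast content in these gaps was not tested.

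**Figure D3:**
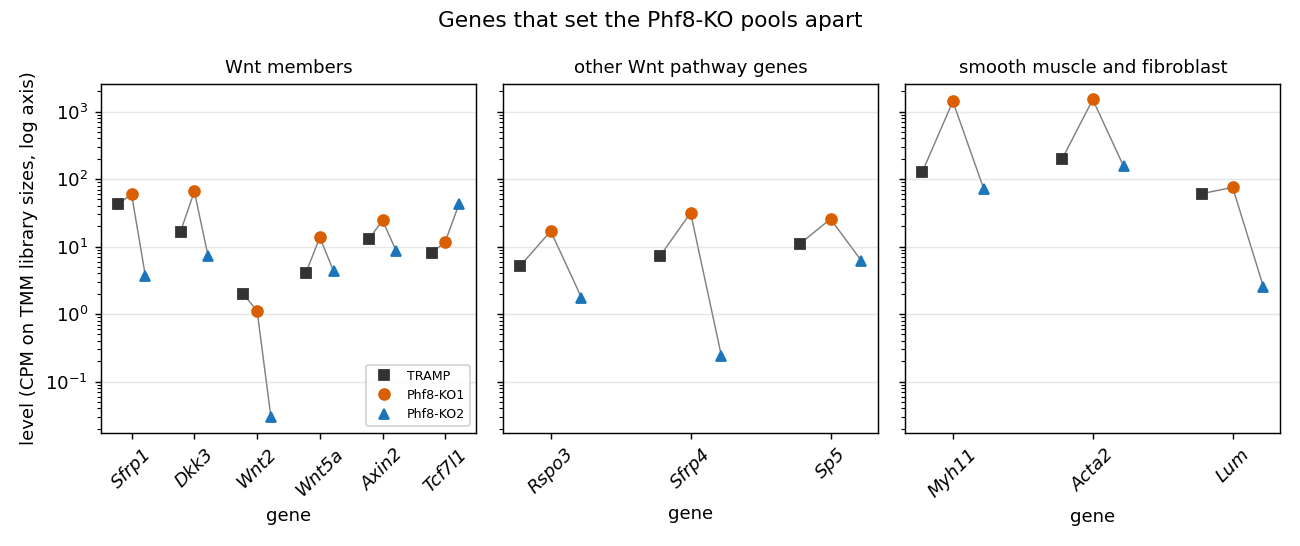
Levels (CPM on TMM library sizes, log axis) in TRAMP, Phf8-KO1 and Phf8-KO2 of members that set the Phf8-KO pools apart (left), of other pathway genes (middle) and of smooth muscle and fibroblast markers (right); each mark is 1 library and lines join the libraries of a gene. All genes shown but Tcf7l1 are higher in Phf8-KO1 than in Phf8-KO2, as Myh11 and Lum are. The pathway genes shown are a selection, and others, such as Ptk7, Pygo1 and Apc2, were higher in Phf8-KO2.

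The other genes of the pathway, 73 from a textbook list, were read in the same fit, and 63 passed the filter. edgeR's quasi-likelihood test called none of them. At an unadjusted p under 0.05, 2 were lower and 17 higher, against 12.2% and 14.9% of all genes. DESeq2 called 0 lower and 14 higher, against 4.59% and 9.42%. The likelihood ratio test called 1 lower and 8 higher, with no share of all genes given here. More than 2-fold in both pools were 1 lower and 13 higher, against 12.4% and 11.7%, and the median log2 fold change was 0.75. The 17 included 7 of 11 nuclear cofactors, 4 of 9 planar polarity genes and 3 of 16 genes of the transduction and destruction complex. The last of these lies near the 14.9% of all genes. Gsk3a, a kinase that marks β-catenin for breakdown, was at 29.8 CPM in TRAMP against 85.9 in Phf8-KO1 and 97.9 in Phf8-KO2 (log2 fold change 1.63, SE 0.21, adjusted p = 0.101), Axin1 at 27.1, 52.4 and 61.6 CPM, and Csnk1d at 92.5, 177 and 184 CPM. The other tested genes of that complex did not pass, and Apc, Btrc and Tnks2 were below TRAMP in both pools. Among the nuclear cofactors, 7 of 11 had unadjusted p under 0.05 on the higher side (14.9% of all genes), among them the β-catenin adaptors Bcl9 (17.8, 41.7 and 43.9 CPM) and Bcl9l (20.4, 53.5 and 76.9 CPM) and their partner Pygo2 (31.6, 59.9 and 66.4 CPM).

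Of 7 tested target genes, the adhesion receptor Cd44 was the only one with an unadjusted p under 0.05, at 45.5 CPM in TRAMP against 202 in Phf8-KO1 and 166 in Phf8-KO2 (log2 fold change 2.01, SE 0.24, adjusted p = 0.101, in DESeq2 2.70e-09). Myc was at 34.9, 44.6 and 55.8 CPM, and the cell cycle gene Ccnd1 at 12.7, 21.4 and 19.7 CPM, both less than 2-fold above TRAMP. In the planar polarity group, which guides cell orientation, 4 of 9 had unadjusted p under 0.05, all higher, against 14.9% of all genes. Vangl2 was at 1.73, 9.87 and 10.4 CPM (log2 fold change 2.55, SE 0.44, adjusted p = 0.101), Daam2 at 1.14, 7.06 and 7.39 CPM, and Celsr2 at 10.4, 22.9 and 27.4 CPM. The Phf8-KO pools were close to each other for all 3.

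Neither the Wnt secretion genes Porcn and Wls nor the protease gene Trabd2b, listed in the same group, had an unadjusted p under 0.05. Porcn, which adds the lipid, was at 6.30, 5.07 and 4.98 CPM, and Wls, which carries the ligands to the surface, at 99.0, 115 and 102 CPM. Trabd2b was at 0.900, 1.01 and 0.453 CPM. Among the receptors outside the frizzled family, Ptk7 was at 3.29, 7.92 and 16.6 CPM (adjusted p = 0.174), Ryk at 42.1, 54.6 and 54.4 CPM, and Ror1 at 1.52, 2.85 and 2.87 CPM. Rspo1, Rspo2 and Rspo3, ligands of LGR receptors, each had their highest level in Phf8-KO1 and lowest in Phf8-KO2. Rspo3 was at 5.12, 17.0 and 1.75 CPM, Rspo2 at 0.485, 2.18 and 0.0905 CPM, and Rspo1 at 0.242, 0.525 and 0.0905 CPM, where 0.0905 CPM is the floor of 3 counts. The secreted inhibitor Sfrp5 was at 4.57, 0.788 and 0.211 CPM (log2 fold change -3.20, SE 0.95, adjusted p = 0.151), lower in both pools, whereas Sfrp4 (picked after its values were seen) was at 7.16, 31.6 and 0.241 CPM. Kremen1, a DKK receptor, was at 11.6, 22.6 and 22.3 CPM, and the membrane inhibitor Apcdd1 at 2.18, 4.09 and 5.70 CPM.

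**Figure D4:**
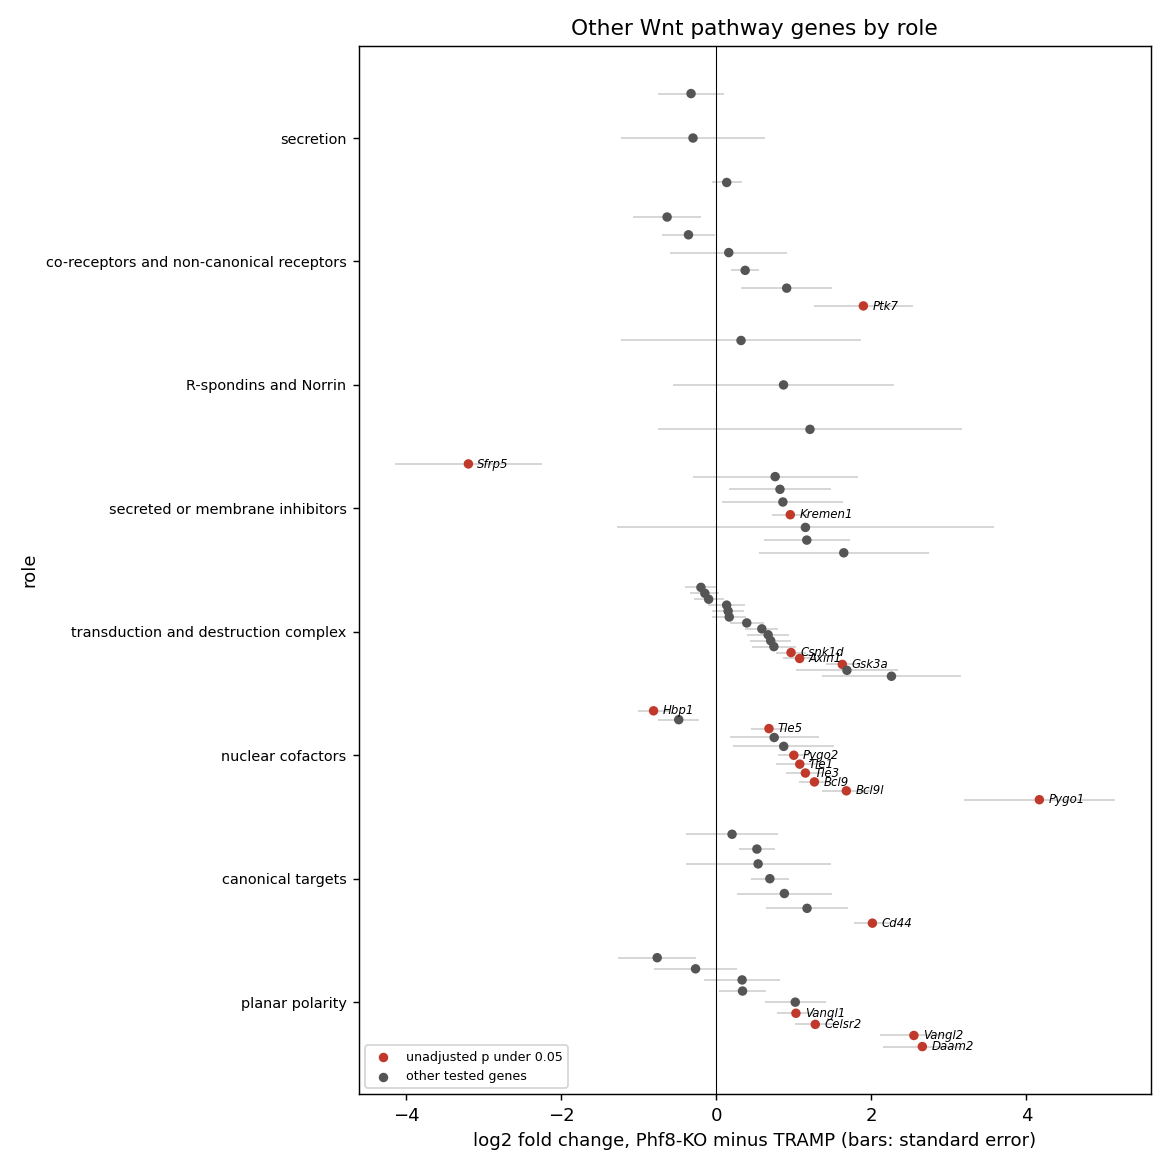
Log2 fold change (Phf8-KO minus TRAMP, x axis) with its standard error for the 63 tested other pathway genes, grouped by role on the y axis; red points had unadjusted p under 0.05 in edgeR's quasi-likelihood test and are named. Red points are mostly on the higher side, 17 against 2. On that side stand 7 of 11 nuclear cofactors and 4 of 9 planar polarity genes, against 14.9% of all genes. The transduction and destruction complex, with 3 of 16, lies near that share.

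Base composition moved with the comparison over the whole table. Across the 16608 tested genes with an annotated transcript (91.2%), G and C content and log2 fold change had a Pearson r of 0.26, a description over genes that share the same 3 libraries. The median log2 fold change went from -0.44 among the 20% of genes lowest in G and C to 0.74 among the highest 20%, and the share lying more than 2-fold higher in both pools went from 3.07% to 28.4%. The tested members had a median G and C content of 52.7% against 49.6% over all genes. Each log2 ratio was also taken relative to the median of genes of like G and C content (a step added after seeing the data). On this scale the members' median was 0.33, with 9 members more than 2-fold higher and 3 lower in both pools. This median is of the mean of both pools' log2 ratios, while the 0.81 given above is of edgeR's fitted log2 fold changes. The gap between 0.81 and 0.33 is therefore not a measure of centring alone. Fzd1 no longer lay more than 2-fold higher in both, as its centred value in Phf8-KO1 was 0.90. Wnt7b was at 1.05 on this scale, against 2.00 in the edgeR fit. The leading members kept their side of TRAMP, with mean values of 2.00 for Lrp5, 1.28 for Wnt4, 1.44 for Fzd4, 1.33 for Fzd1, 2.87 for Lef1, 2.40 for Notum, 1.64 for Sfrp2 and -2.95 for Lgr5. Among the other pathway genes, those more than 2-fold higher went from 13 to 6, and the centred median was 0.43. Gsk3a was at 0.67, Bcl9l at 0.70, Cd44 at 2.27 and Vangl2 at 2.26 on this scale. The share of all genes more than 2-fold higher or lower on this scale is not given here. The centred counts of members and other pathway genes therefore have no background to be read against.

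**Figure D5:**
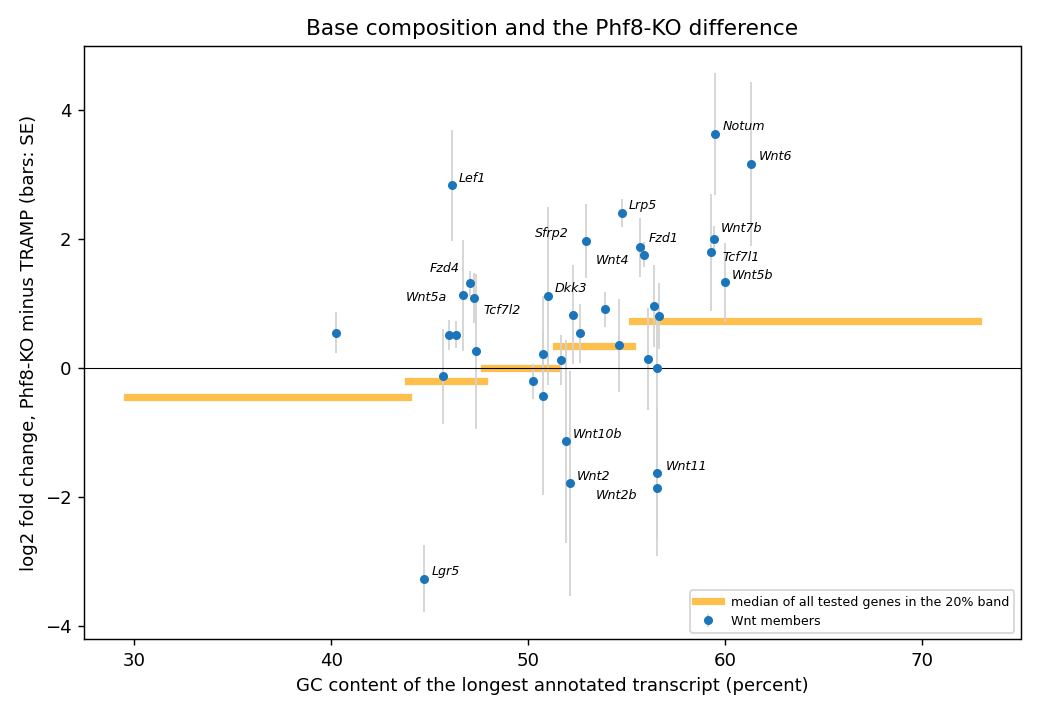
Log2 fold change (Phf8-KO minus TRAMP, y axis) with its SE against the G and C content of the longest annotated transcript in percent (x axis) for the tested members (points; Wnt7a, without a TRAMP count, is left out), with the median of all tested genes in each 20% band of G and C content (orange bars). The bars climb from -0.44 to 0.74, Lrp5, Lef1, Fzd4, Notum and Sfrp2 lie above the bar of their band, and Lgr5 lies below.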

How the data were processed

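Tumor RNA pools of TRAMP and Phf8-KO TRAMP mice were compared gene by gene. Filtered reads were aligned by the authors (HISAT2, GRCm38) and assigned to genes with HTSeq. The deposited table holds raw counts. Tool versions, annotation release and strand setting are not given in the sources used here, so reads of overlapping genes on either strand may be mixed.

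The test was run with edgeR 4.0.16 under R 4.3.3 (quasi-likelihood test, TMM scaling, filterByExpr by group, Benjamini-Hochberg adjustment over 18216 genes, called at adjusted p under 0.05 and fold change over 2 or under 0.5). Levels are CPM on TMM library sizes. SEs are the log2 fold change over the square root of F. The fit leaves 1 residual degree of freedom, so only the Phf8-KO pools inform the spread, which TRAMP is assumed to share. The common biological coefficient of variation was 0.384. Intervals are exact (95%) and, like the floor of 3 counts, cover counting error only. Levels per kilobase used the summed exon length of the GENCODE vM21 annotation, G and C content its longest transcript (20 bins for the centred values), and coordinates and promoter windows RefSeq of GRCm38.p6.

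The members and lists were chosen with earlier results of these data known. Members are described with each library's value where they had an unadjusted p under 0.05, lay more than 2-fold on the same side in both pools with at least 1 CPM, reached 10 CPM, or differed more than 4-fold between pools. Further members were also given, and of the other pathway genes up to 3 per role with the smallest p. Tle5 was matched as Aes. Each result was recomputed with library size, upper quartile or RLE scaling, no filter or a mean CPM of at least 1, DESeq2 1.42.0, limma-voom (limma 3.58.1), edgeR's likelihood ratio test and its quasi-likelihood test without the legacy setting, no fold threshold, and leaving out each Phf8-KO pool. Centring on genes of like G and C content was added after seeing the data. Some markers on the cell type lists are not reported here.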

Additional observations from a re-analysis of the deposited data

How the results depend on the processing

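No member or other pathway gene was called under RLE, upper quartile or library size scaling, a mean CPM of at least 1, limma-voom, the quasi-likelihood test without the legacy setting, or with no fold threshold. Against 0 called members, DESeq2 called 1 lower and 6 higher, the likelihood ratio test 1 and 6, and no filter on low counts 1 and 5; against 0 other pathway genes, DESeq2 called 14 higher, the likelihood ratio test 1 lower and 8 higher, and no filter 1 lower and 13 higher. Leaving out 1 Phf8-KO pool gave 3 to 7 members more than 2-fold lower, against 3 with both, and 13 to 15 higher, against 10; the 7 without Phf8-KO1 were Wnt2, Wnt2b, Wnt10b, Wnt11, Lgr5, Sfrp1 and Dkk3. These ratios have no test, as no residual degree of freedom is left. For ratios of a single pool, the likelihood ratio test and no filter, the share of all genes is not given here. The counts under those settings therefore have no background to be read against. Upper quartile scaling shifted the median of all genes by -0.149. With both pools kept, 11 of 362 alternative values for the 37 tested members changed sign, in 5 genes, none of which was called. Fzd8 went to -0.0191 under upper quartile scaling and -0.0182 centred on genes of like G and C content, Rnf43 to -0.0102 and -0.35, and Fzd10 to -0.14 and -0.65, as well as -0.0022 with RLE, -0.0224 with limma-voom and -0.0031 without the legacy setting. Centring also took Axin2 to -0.24 and Dkk2 to 0.0269. The same was counted for 27 of the other pathway genes named here, not including Nkd2, Apc, Btrc, Tnks2 and Tle5. For these 27 genes, 8 of 267 values changed sign with both pools kept. Wls was at -0.0137 under upper quartile scaling. With limma-voom, Rspo1 was at -0.19, Rspo2 at -0.22, Rspo3 at -0.0405 and Sfrp4 at -1.60. On the centred scale, Rspo1 was at -1.01, Sfrp4 at -1.02 and Sp5 at -0.74. Centred values are means of both pools' log2 ratios, not fits. Before centring, these ratios were 1.02 (Phf8-KO1) and -1.15 (Phf8-KO2) for Rspo1, 2.14 and -4.71 for Sfrp4, and 0.18 and -0.19 for Fzd10. Their means were thus negative before centring, so these signs differ from the fit by the measure used. Leaving out a pool also turned 9 members. Without Phf8-KO1 the log2 ratio was -0.17 for Fzd6, -0.19 for Fzd10, -0.11 for Znrf3, -0.60 for Axin2 and -1.21 for Dkk3, and without Phf8-KO2 it was -0.0019 for Fzd5, -0.0138 for Rnf43, 0.49 for Sfrp1 and 0.34 for Dkk2. Among those 27 genes it turned 6: without Phf8-KO1, Rspo1 (-1.15), Rspo2 (-2.06), Rspo3 (-1.53), Sfrp4 (-4.71) and Sp5 (-0.82), and without Phf8-KO2, Trabd2b (0.17). The causes were not tested. No paired analysis was possible because TRAMP has a single library and the pools share no more than 1 number. At a common coefficient of variation of 0.384 and 1 residual degree of freedom, an adjusted p above the threshold does not show that levels are alike.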
